A study of Mus musculus with 6 samples.

Results

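Sphingosine-1-phosphate (S1P) is a signalling lipid, and 9 genes for its receptors, synthesis, export and breakdown were followed in controls and *Yap* cKO mouse retinas. They were the receptors *S1pr1*, *S1pr2*, *S1pr3*, *S1pr4* and *S1pr5*, the sphingosine kinases *Sphk1* and *Sphk2*, the lyase *Sgpl1* and the exporter *Spns2*. The 9 genes were matched by symbol among the 55421 genes of the count table. The list was chosen from results of the same comparison, so its differences between the groups are given as a description, with fold changes and standard errors and without a test.

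Whole retinas were sampled at 2 months of age. The controls were the Yapfl/fl animals YR612, YR613 and YR615 (n = 3), and the *Yap* cKO group held the Yapfl/fl;RaxCreERT2 animals YR711, YR713 and YR714 (n = 3). Both groups carried floxed *Yap* alleles and received 4-hydroxytamoxifen (4OH-T) at postnatal days 10 and 14, and the groups differed in the inducible Cre recombinase driven from *Rax*. In the adult eye, *Rax* is active in Müller glia and in the non-pigmented epithelium of the ciliary body. The retinas were separated from the front of the eye by a cut below the ora serrata, the border with the ciliary body. Each library held between 24261799 and 35067068 counted fragments of polyadenylated RNA.

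S1P is made inside cells when sphingosine, released from ceramide, is phosphorylated by a sphingosine kinase. It leaves the cell through transporters such as SPNS2 and binds G protein-coupled receptors on the cell surface, or is cut irreversibly by S1P lyase. The receptors differ in the G proteins they engage and are known for their roles in endothelial barriers, vessel tone, cell migration and lymphocyte traffic.

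*S1pr3*, a receptor that engages several classes of G protein, was the member that differed most between the groups. It had 41.0 ± 2.75 TPM (counts scaled by exonic length and by library; SD, n = 3) in the controls and 9.67 ± 1.87 TPM in *Yap* cKO retinas, and was 4.42-fold lower in the edgeR fit. *S1pr1* did not separate the groups, and *S1pr2* and *S1pr5*, both scarce, were higher in each *Yap* cKO retina than in any control retina. The kinases and the lyase overlapped between the groups. *Spns2* was higher by a small margin in all 3 *Yap* cKO retinas.

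The 250 bases upstream of the start site are shown for 2 members, *S1pr3* because it carried the largest difference and *Sphk1* because its first window held a match to a motif of the TEAD factors, the DNA-binding partners of YAP. The sequences are from RefSeq (GRCm38.p6) and end at the base before the start site. That of *S1pr3* is chr13:51408368-51408617 on the plus strand, and that of *Sphk1* is chr11:116530850-116531099 on the plus strand. The first RefSeq start of *Sphk1* lies downstream of the start of the gene as counted (116530925), so the window from that base on is inside the gene. Capitals mark the TEAD core motif GGAATG.
S1pr3: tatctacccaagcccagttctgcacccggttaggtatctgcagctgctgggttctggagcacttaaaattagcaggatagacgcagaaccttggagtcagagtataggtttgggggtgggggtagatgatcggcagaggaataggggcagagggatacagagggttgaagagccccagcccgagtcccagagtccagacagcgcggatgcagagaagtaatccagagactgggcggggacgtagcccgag
Sphk1: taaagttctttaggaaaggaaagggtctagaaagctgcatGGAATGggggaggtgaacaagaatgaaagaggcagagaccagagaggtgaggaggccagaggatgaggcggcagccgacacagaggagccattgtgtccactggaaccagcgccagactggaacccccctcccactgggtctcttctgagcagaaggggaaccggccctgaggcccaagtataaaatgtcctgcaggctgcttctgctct

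The windows were searched on both strands for GGAATG, whose letters on the opposite strand are CATTCC, and for the AP-1 motif TGANTCA, which reads the same on both strands. The set of RefSeq windows used here held 8 of the 9 members, with 13 windows in all. It had no entry for *S1pr1*, which is a limit of that set. Some windows lay wholly inside the gene as counted and not upstream of it. These were the only *Spns2* window (72475028 to 72475277), a *Sphk2* window (45715208 to 45715457) and all *Sphk1* windows after the first. Only the first *Sphk1* window held GGAATG, and the AP-1 motif was found in 2 overlapping *Sphk1* windows. Of all 32851 RefSeq windows of the same length, 12.6% held GGAATG and 6.75% held the AP-1 motif. A match is a stretch of letters and not a bound site, and the lack of one describes this window alone.

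Each receptor has its reading frame in a single coding exon of the GENCODE annotation, so the counts of a receptor came from few and large exons. *S1pr3* (ENSMUSG00000067586, chromosome 13 of GRCm38, 51408639 to 51422797, plus strand) has 2 exons and a coding length of 1134 bases within 4463 exonic bases. *S1pr2* (ENSMUSG00000043895, 20962361 to 20976781) and *S1pr5* (ENSMUSG00000045087, 21242912 to 21248443) lie on the minus strand of chromosome 9. *S1pr1* (ENSMUSG00000045092, 115710433 to 115715072) is on the minus strand of chromosome 3 and *S1pr4* (ENSMUSG00000044199, 81497747 to 81500132) on that of chromosome 10. The other members were *Sphk1* (ENSMUSG00000061878, chromosome 11, 116530925 to 116536674), *Sphk2* (ENSMUSG00000057342, chromosome 7, 45709467 to 45718002), *Sgpl1* (ENSMUSG00000020097, chromosome 10, 61098642 to 61147703) and *Spns2* (ENSMUSG00000040447, chromosome 11, 72451638 to 72489904). No exon of the 9 genes overlapped an exon of another gene on the same strand.

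*Yap1*, the gene deleted in this line, was read first as a check of the labels. It had 9.48, 9.52 and 9.83 TPM in the control retinas and 3.99, 3.76 and 3.94 TPM in the *Yap* cKO retinas. On the log2 scale *Yap1* differed by -1.36 (standard error 0.093, adjusted p = 0.000282, edgeR quasi-likelihood test with Benjamini-Hochberg adjustment over 16575 genes), in the direction given by the labels in all 3 retinas.

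In control retinas the most abundant S1P gene was *S1pr1*, at 62.1 ± 4.50 TPM, followed by *S1pr3* at 41.0 TPM. *Sgpl1* (18.6 TPM) and *Sphk2* (17.3 TPM) came next with ranges that overlapped, then *Spns2* (14.4 TPM) and *Sphk1* (5.16 TPM). The receptors *S1pr2* (1.36 TPM) and *S1pr5* (0.946 TPM) overlapped each other, and *S1pr4* was lowest at 0.404 TPM. *S1pr1* and *S1pr3* were thus above the enzymes and the exporter in level, and the remaining receptors below them.

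In *Yap* cKO retinas *S1pr1* remained highest in mean level, at 69.7 ± 10.5 TPM. *S1pr3*, at 9.67 TPM, stood below *Sgpl1* (21.2 TPM), *Sphk2* (16.3 TPM) and *Spns2* (16.1 TPM), with no retina in the range of any of these. The ranges of *Sphk2* and *Spns2* overlapped, and the remaining order was *Sphk1* (4.86 TPM), *S1pr2* (2.22 TPM), *S1pr5* (1.43 TPM) and *S1pr4* (0.515 TPM). Among the 16575 genes tested, *S1pr3* was at the 73.6 percentile of mean TPM in the controls and at the 38.3 percentile in *Yap* cKO retinas, while *S1pr1* was at the 82.3 and 83.6 percentiles.

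**Figure D1:**
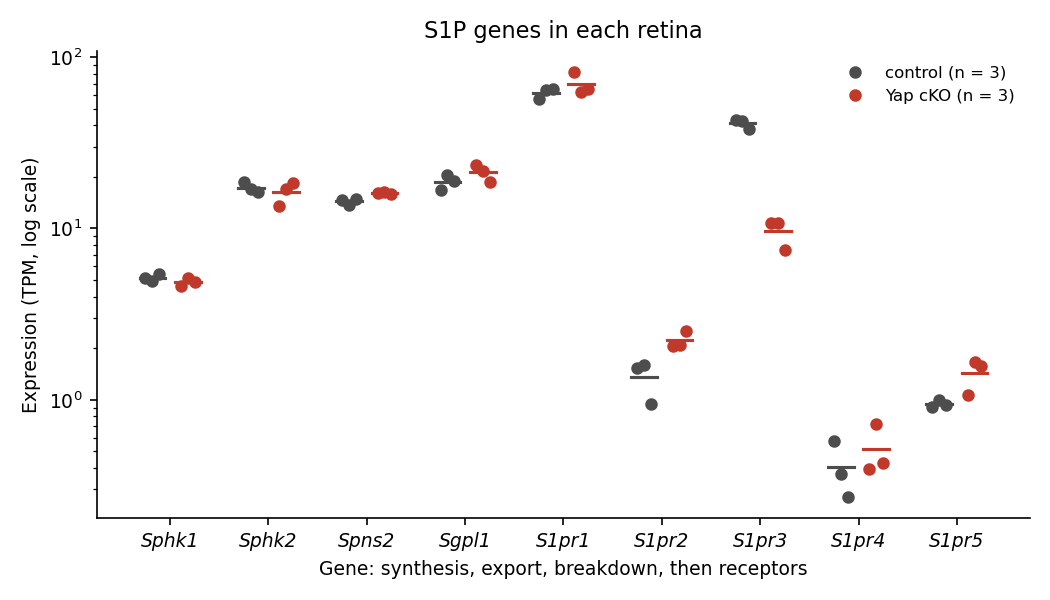
Expression of the 9 S1P genes in TPM on a log axis, with 1 point per retina, control in grey and *Yap* cKO in red, and a line at each group mean (n = 3 per group). *S1pr3* is the gene whose groups lie farthest apart, at means of 41.0 and 9.67 TPM.

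*S1pr3* had 42.9, 42.3 and 37.8 TPM in control retinas YR612, YR613 and YR615, from 1262, 1294 and 1298 counts. It had 10.7, 10.8 and 7.51 TPM in *Yap* cKO retinas YR711, YR713 and YR714, from 306, 418 and 229 counts. All 3 *Yap* cKO retinas were far below the lowest control, and YR714 was the lowest of them. The log2 fold change was -2.14 (standard error 0.134), the 24th lowest of the 16575 genes tested. It lay between -2.23 and -2.01 when single retinas were left out. In bulk retina, fewer cells that express a gene and less of its RNA per cell cannot be told apart.

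*S1pr1*, the main S1P receptor of endothelium, had 56.9, 64.5 and 64.8 TPM in the controls and 81.8, 62.5 and 64.8 TPM in *Yap* cKO retinas. The groups overlapped, with YR711 above the other 5. A log2 fold change of 0.11 (standard error 0.104) was found, which became -0.02 without YR711.

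*S1pr2*, which is linked to endothelial permeability, had 1.54, 1.59 and 0.947 TPM in the controls and 2.06, 2.08 and 2.53 TPM in *Yap* cKO retinas. The groups did not overlap, control YR615 was the lowest retina, and the log2 fold change was 0.66 (standard error 0.21). Without YR615 it was 0.44, and with gene length corrected it was 0.57.

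*S1pr5*, a receptor known from oligodendrocytes and natural killer cells, had 0.909, 0.992 and 0.937 TPM in the controls and 1.06, 1.65 and 1.58 TPM in *Yap* cKO retinas. These levels rested on 15, 17 and 18 counts in the controls and 17, 36 and 27 counts in *Yap* cKO retinas. The groups did not overlap, although YR711 was close to the controls, and the log2 fold change of 0.55 had a standard error of 0.26.

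*S1pr4*, a receptor of lymphocytes and other blood cells, had only 9, 6 and 5 counts in the controls and 6, 15 and 7 counts in *Yap* cKO retinas. It did not pass the filter on low counts and has no fold change. The groups overlapped, and no difference was tested at these counts.

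The relative make-up of receptor transcripts was computed within each retina, as a share of the summed TPM of the 5 receptors. *S1pr3* made up 41.7, 38.6 and 36.1% of that sum in the controls and 11.2, 13.8 and 9.77% in *Yap* cKO retinas. The share of *S1pr1* was 58.7% ± 3.25 (SD, n = 3) in controls and 83.3% ± 2.53 in *Yap* cKO retinas. Shares of a sum are bound to each other, and the level of *S1pr1* itself overlapped between the groups. The sum was 106 ± 3.58 TPM in controls and 83.5 ± 10.8 TPM in *Yap* cKO retinas, with YR711 at 96.0 TPM and each *Yap* cKO retina below each control. There was 1.52 ± 0.193 times as much *S1pr1* as *S1pr3* in the controls and 7.35 ± 1.43 times as much in *Yap* cKO retinas. *S1pr2*, *S1pr4* and *S1pr5* together stayed a small part of the sum in both groups.

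**Figure D2:**
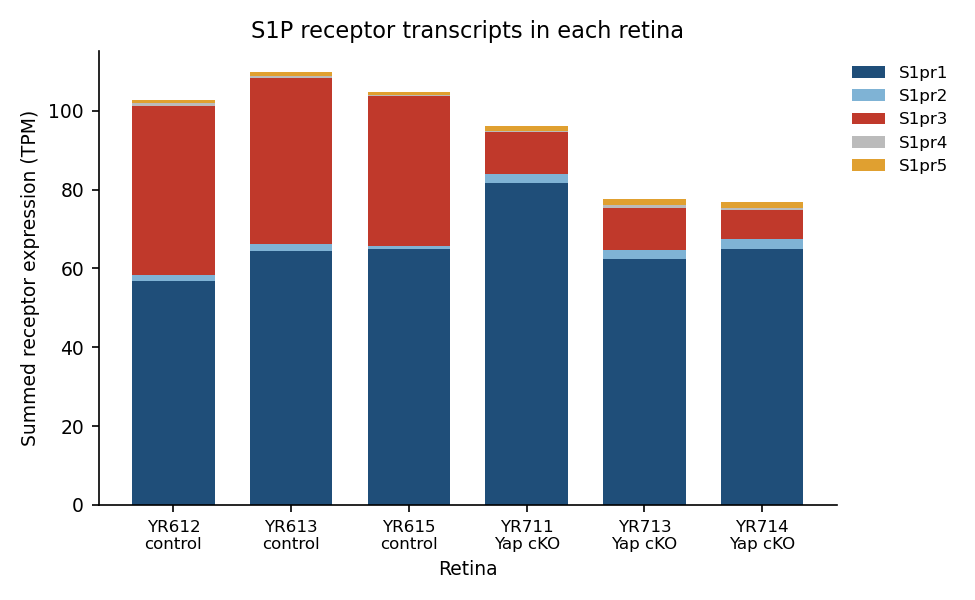
Stacked bars of the TPM of the 5 S1P receptors in each retina, with 3 control retinas on the left and 3 *Yap* cKO retinas on the right. The *S1pr3* segment is between 37.8 and 42.9 TPM in controls and between 7.51 and 10.8 TPM in *Yap* cKO retinas, beside *S1pr1* segments that overlap between the groups.

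Among the genes that make, move and break down S1P, no difference approached that of *S1pr3* in size. *Sphk1*, a sphingosine kinase of the cytoplasm and plasma membrane, had 5.14, 4.92 and 5.42 TPM in the controls and 4.59, 5.13 and 4.87 TPM in *Yap* cKO retinas. *Sphk2*, the kinase also found in the nucleus, had 18.8, 16.9 and 16.2 TPM in the controls and 13.6, 17.0 and 18.4 TPM in *Yap* cKO retinas. Both kinases overlapped between the groups, with log2 fold changes of -0.14 (standard errors 0.12 and 0.14). That of *Sphk2* was -0.02 without YR711 and -0.25 without YR714. *Sphk2* stood above *Sphk1* in every retina, by 3.36 ± 0.334 times in controls and 3.35 ± 0.409 times in *Yap* cKO retinas.

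*Sgpl1*, the lyase that ends the pathway, had 16.7, 20.4 and 18.8 TPM in the controls and 23.5, 21.5 and 18.6 TPM in *Yap* cKO retinas. The groups overlapped, and the log2 fold change was 0.13 (standard error 0.098). It was 0.05 without YR711 and 0.20 without YR714. *Spns2*, the exporter, had 14.6, 13.8 and 14.9 TPM in the controls and 16.0, 16.3 and 15.9 TPM in *Yap* cKO retinas. The *Yap* cKO retinas of *Spns2* all lay above the controls, but its log2 fold change of 0.10 was about as large as its standard error (0.094) and was 0.05 without control YR613.

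Of the 9 members, 8 passed the filter on low counts, and 1 (*S1pr3*) met the criteria of the study's methods, which ask for a mean of 5 TPM in a group, a change of 1.5-fold or more and an adjusted p of at most 0.05. These criteria were met by 0.796% of all tested genes (0.211% higher and 0.585% lower in *Yap* cKO retinas; without control YR613 the balance turned, with 352 genes higher and 164 lower), and the adjusted p alone by 1.49% (0.501% higher and 0.989% lower). Control and *Yap* cKO values did not overlap for 4 of the 8, of which 3 were higher and 1 was lower. Over all tested genes, 24.3% did not overlap (15.2% higher and 9.04% lower). Because the members were chosen on this contrast, nothing is read from these counts. The median log2 fold change of the 8 members was 0.10, beside 0.00 for all tested genes.

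The genes that feed S1P synthesis or carry related signals were taken from a list of 62 genes outside the 9, of which 58 were tested. In *Yap* cKO retinas 2 of the 58 were higher at an adjusted p of at most 0.05 and 0 were lower, and 0 met all criteria. At an unadjusted p under 0.05 the counts were 9 higher (15.5% of the 58) and 5 lower (8.62%), beside 12% higher and 9.42% lower over all tested genes. The median log2 fold change of the 58 genes was 0.05.

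The larger of the 2 was *Cers6*, a ceramide synthase, with 12.7, 15.8 and 14.3 TPM in the controls and 22.6, 23.3 and 20.4 TPM in *Yap* cKO retinas. The difference on the log2 scale was 0.57 (standard error 0.086, adjusted p = 0.0158, edgeR quasi-likelihood test), and the groups did not overlap. *Smpd3*, a neutral sphingomyelinase that releases ceramide from sphingomyelin, had 25.8, 29.1 and 26.0 TPM in the controls and 36.9, 37.0 and 35.2 TPM in *Yap* cKO retinas. Here the log2 difference was 0.37 (standard error 0.074, adjusted p = 0.0436, same test), again without overlap. Neither call held with every retina left out, although the fold changes stayed close to the main values. With single retinas left out, the log2 fold change lay between 0.517 and 0.631 for *Cers6* and between 0.345 and 0.412 for *Smpd3*. Without YR613 or without YR714, *Cers6* met all criteria. The adjusted p of *Cers6* was 0.0813 with YR612 left out, 0.102 with YR615 left out and 0.108 with YR713 left out. Over all 14 alternatives it ranged from 6.22e-06 to 0.108 and passed in 11. That of *Smpd3* was 0.189, 0.218 and 0.235 with the same retinas left out and 0.100 with YR711 left out, and over 14 alternatives it ranged from 0.00408 to 0.235 and passed in 10. The log2 fold change of all genes followed exonic length (Spearman correlation 0.391 across genes, which are not replicates), and with a length correction the values were 0.46 for *Cers6* (adjusted p = 0.00664) and 0.35 for *Smpd3* (adjusted p = 0.0216).

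The other groups of the pathway had no gene past the adjusted p. In de novo synthesis, where 1 of 13 tested genes (*Cers6*) was higher, the most abundant gene was *Sptssa*, a small subunit of serine palmitoyltransferase, at 194 ± 18.8 TPM in controls and 187 ± 2.01 TPM in *Yap* cKO retinas. In sphingomyelin turnover, where 1 of 7 (*Smpd3*) was higher, it was the acid sphingomyelinase *Smpd1*, at 205 ± 13.8 and 199 ± 7.08 TPM. The inhibitors of synthesis (0 of 3) were led by *Ormdl3* at 359 ± 14.1 and 360 ± 15.9 TPM, and the ceramidases (0 of 4) by *Asah1* at 73.4 ± 3.22 and 73.7 ± 4.41 TPM. The group means of each of these genes differed by less than the SD of the controls.

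Ceramide kinase *Cerk* led the other uses of ceramide (0 of 4), at 183 ± 8.76 and 179 ± 11.7 TPM. Of the phosphatases that can act on S1P (0 of 5), *Plpp2* was highest at 225 ± 13.6 and 212 ± 17.9 TPM. *Aldh3a2*, which oxidises the aldehyde left by S1P lyase, led the carriers and aldehyde handling genes (0 of 2), at 41.0 ± 1.44 and 50.3 ± 1.30 TPM (log2 fold change 0.24, adjusted p = 0.125). Among genes for lysophosphatidic acid, the lipid closest to S1P in signalling (0 of 6), *Enpp2* (autotaxin) was highest at 81.4 ± 10.2 and 72.7 ± 10.9 TPM. *Gnai2* led the G proteins and their effectors, which act below the receptors (0 of 14), at 218 ± 9.10 and 239 ± 5.02 TPM. Of the 4 genes not tested, *Sptlc3* and *Acer1* had no count in any retina.

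**Figure D3:**
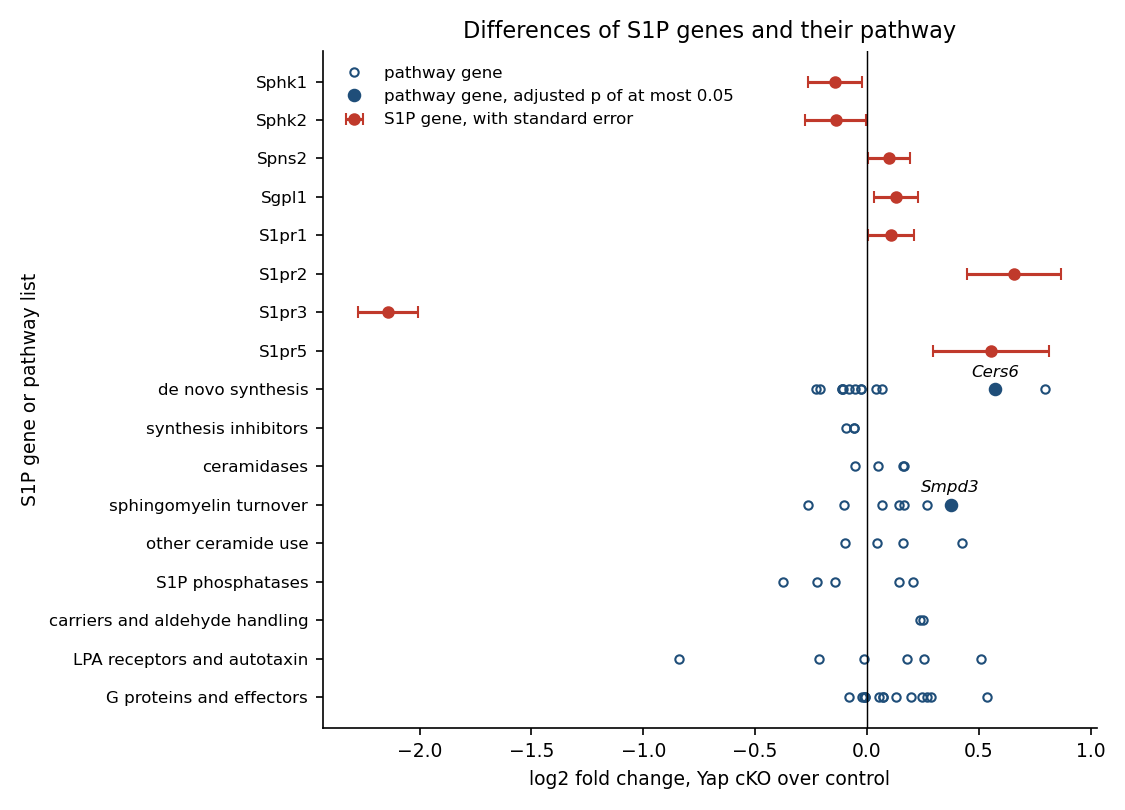
Log2 fold change of *Yap* cKO over control for the 8 tested S1P genes (red, with standard errors) and for each tested gene of the 9 pathway lists (blue, 1 point per gene; filled where the adjusted p was at most 0.05). *S1pr3* lies at -2.14, apart from the other genes shown, and the filled points are *Cers6* at 0.57 and *Smpd3* at 0.37.

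The genes most like *S1pr3* were found from the Pearson correlation of log2 CPM over the 6 retinas, as a description of these samples, in which both groups are pooled. The 5 highest were *Fmod* (r = 0.997), *Slc26a4* (0.995), *BC043934* (0.994), *Cmbl* (0.993) and *Foxi3* (0.993). Any gene with a difference between the groups and small spread within them scores high on this measure. *Fmod*, which encodes the matrix proteoglycan fibromodulin, had 24.6 ± 2.24 TPM in controls and 1.68 ± 0.720 TPM in *Yap* cKO retinas. *Slc26a4*, which encodes the anion exchanger pendrin, had 8.42 ± 0.596 and 0.246 ± 0.179 TPM. *Cmbl* had 9.88 ± 0.586 and 4.44 ± 0.580 TPM, *Foxi3* had 3.28 ± 0.151 and 1.49 ± 0.200 TPM, and *BC043934* had 1.71 ± 0.0997 and 1.12 ± 0.110 TPM. All 5 had the *Yap* cKO retinas below the controls, which follows from the way they were picked, so nothing is read from it.

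S1P receptors are made by several cell types that a dissected retina can hold, so marker genes of these cells were read in the same libraries. The tissue matched its label, with markers of Müller glia and of retinal ganglion cells abundant in every library. The 10 Müller glia markers, of which *Glul* was most abundant (3017 ± 118 and 2711 ± 259 TPM), summed to 7038, 7081 and 7264 TPM in controls and 6594, 6166 and 6386 TPM in *Yap* cKO retinas, and 0 of 10 passed the test. For endothelium, led by *Cldn5*, the sums were 166, 134 and 158 TPM and 142, 145 and 139 TPM, and for pericytes and smooth muscle, led by *Rgs5*, they were 117, 112 and 114 TPM and 126, 110 and 97.9 TPM. In these vessel lists 0 of 10 and 0 of 10 markers passed the test.

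Some markers of the ciliary body, of pigment cells and of fibroblasts were lower in the *Yap* cKO retinas, as *S1pr3* was. Of 9 ciliary body epithelium markers 3 were lower at the adjusted p, namely *Optc* (opticin; 50.2, 45.6 and 48.2 TPM in controls and 2.86, 8.39 and 2.44 TPM in *Yap* cKO retinas; adjusted p = 0.00243, edgeR quasi-likelihood test), *Ltbp2* and *Col9a2*. The sum of that list was 469, 452 and 489 TPM in controls and 418, 514 and 476 TPM in *Yap* cKO retinas, since its most abundant gene was the water channel gene *Aqp1* (229 ± 7.60 and 292 ± 27.4 TPM). Of 8 melanin pigment cell markers, 1 (*Pmel*) was lower at the adjusted p, and the sum, led by *Dct*, was 93.6, 86.4 and 87.3 TPM in controls and 21.7, 62.2 and 36.0 TPM in *Yap* cKO retinas. Of 7 tested fibroblast markers, *Fbln1* and *Col1a2* were lower. The sum, led by *Fbln1* in controls and by *Mgp* in *Yap* cKO retinas, was 107, 75.6 and 93.5 TPM and 34.3, 53.7 and 29.7 TPM. The lower sum came from *Fbln1*, *Col1a2* and *Mfap4* (log2 fold change -2.25, adjusted p = 0.0917, same test), while *Col1a1*, *Col3a1*, *Pdgfra* and *Mgp* had log2 fold changes of 0.08, -0.00, -0.05 and -0.07, and the median of the list was -0.07. The 8 retinal pigment epithelium markers, led by *Rlbp1*, which Müller glia also express, summed to 1570, 1663 and 1658 TPM and 978, 1093 and 1500 TPM, and 0 of 8 passed the test.

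Among the 3 *Yap* cKO retinas, YR713 was the highest by a clear margin for *Optc*, the pigment markers and the fibroblast markers. Its *S1pr3* level (10.8 TPM) was close to that of YR711 (10.7 TPM). An order among 3 retinas rests on few values, and nothing is read from it. As a percentage of the control mean, *S1pr3* was at 26.2, 26.2 and 18.3% in YR711, YR713 and YR714, the summed pigment markers at 24.4, 69.8 and 40.5%, the fibroblast markers at 37.2, 58.3 and 32.2% and *Optc* at 5.95, 17.5 and 5.09%. The retinal pigment epithelium sum was at 60, 67 and 92%, and without *Rlbp1*, its most abundant gene, it was at 29.3, 54 and 102%. Either way it was highest in YR714, and the sum of the ciliary body list was at 88.9, 109 and 101%. No marker of these lists was at 0 in all retinas. The part of these cells in the *S1pr3* difference was not tested.

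**Figure D4:**
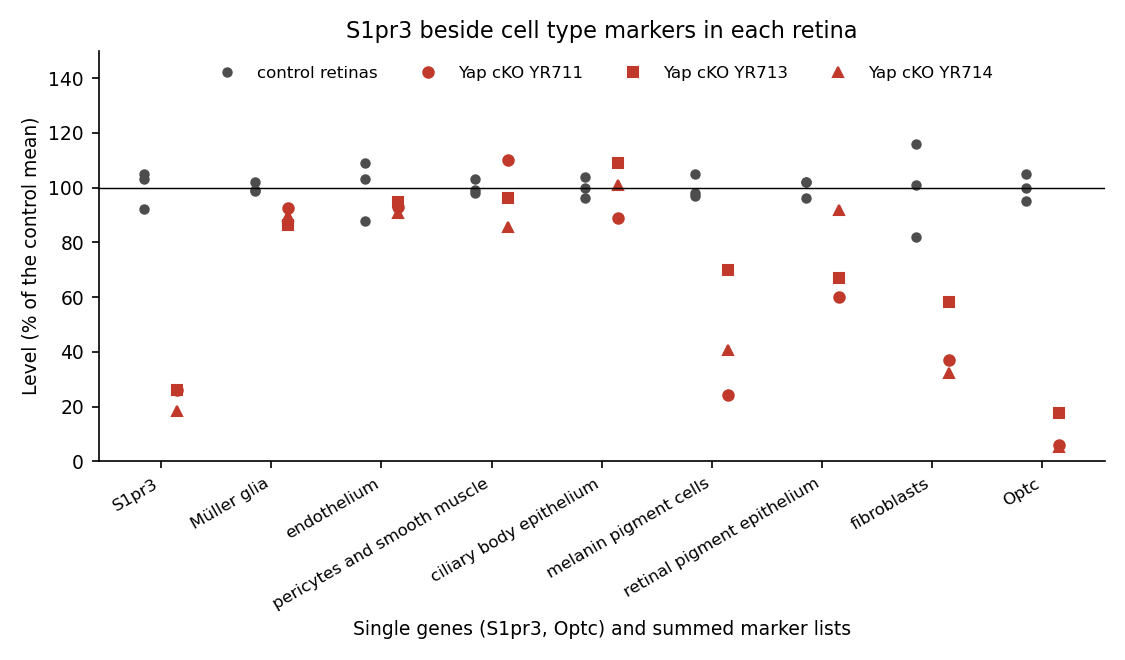
Level in each retina as a percentage of the control mean, for *S1pr3*, for the summed TPM of 7 marker lists and for *Optc*, with control retinas in grey and each *Yap* cKO retina by its own symbol in red. *S1pr3* lies between 18.3 and 26.2% in the *Yap* cKO retinas, Müller glia markers between 86.5 and 92.5%, and the pigment markers are spread from 24.4 to 69.8%.

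Cells known for the scarcer receptors were also read. The 8 oligodendrocyte markers, led by *Cnp*, had 0 of 5 tested genes past the adjusted p and summed to 51.9, 52.6 and 54.4 TPM in controls and 50.5, 50.6 and 54.6 TPM in *Yap* cKO retinas. *Mog*, which is specific to myelinating cells, had 1 count in *Yap* cKO retina YR711 and none in any other retina. Lymphocyte and NK cell markers, led by *Cd8a*, summed to at most 1.32 TPM in any retina, with *Klrb1c* at 0 in all 6 and 0 of 2 tested genes past the adjusted p. Microglia markers (0 of 10, led by *C1qb*) summed to 128, 107 and 137 TPM and 109, 144 and 126 TPM. Within that list, *Cx3cr1* (6.35 and 8.18 TPM in the group means), *P2ry12* (5.37 and 8.01 TPM), *Siglech* (2.58 and 3.70 TPM) and *Csf1r* (11.1 and 12.6 TPM) had each *Yap* cKO retina above each control, with adjusted p between 0.130 and 0.436 (edgeR quasi-likelihood test). Over all tested genes, 15.2% had each *Yap* cKO retina above each control. Another 4 of the 10 markers, *Tmem119*, *C1qa*, *C1qb* and *C1qc*, had log2 fold changes of -0.12, -0.18, -0.13 and -0.15. Transcripts of lymphocytes, the cells best known for *S1pr4*, were thus scarce in every retina.

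Among further lists, 1 of 7 astrocyte markers was lower, *Aldh1l1*, which Müller glia also express (16.2 ± 0.764 TPM in controls and 9.74 ± 0.311 TPM in *Yap* cKO retinas, adjusted p = 0.00437, edgeR quasi-likelihood test), while the most abundant, *Aldoc*, was at 911 ± 31.5 and 867 ± 45.6 TPM. Retinal ganglion cell markers (0 of 8), led by *Nefl*, summed to 2180, 2120 and 2410 TPM and 2241, 2176 and 2435 TPM. Red blood cell markers (0 of 5, led by *Hbb-bs*) summed to 55.0, 44.8 and 79.8 TPM and 32.6, 40.6 and 49.3 TPM. Lens markers (0 of 4, with *Lim2* at 0 in all retinas) summed to 9.34, 5.41 and 18.4 TPM and 4.69, 5.23 and 3.83 TPM. The highest mean of that list was *Cryaa* in controls (2.40 TPM, with 5.64 TPM in YR615) and *Crybb1* in *Yap* cKO retinas (1.90 TPM). Of 8 tested genes known to respond to YAP, 2 were lower at the adjusted p, *Ajuba* and *Ccn2*, the latter with 55.9, 38.7 and 72.4 TPM in controls and 16.6, 16.1 and 18.8 TPM in *Yap* cKO retinas.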

How the data were processed

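Stranded, paired-end libraries of polyadenylated RNA from 6 retinas were aligned to GRCm38 with STAR 2.7.3a, according to the submitters' processing notes. Per the file headers, the authors assigned fragments to the exons of each gene using featureCounts 1.6.2 (strand setting 2, Ensembl release 98). The deposited values are counts without normalization. The table gave 30129 genes with a count, and 55154 of its genes received a symbol from GENCODE. Genotype and days of induction are from the labels, and age is from the study's methods, which call the retinas independent biological replicates.

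TPM were computed from counts and exonic lengths. Counts were filtered with filterByExpr by group, scaled by TMM and tested with edgeR 4.0.16 (R 4.3.3; quasi-likelihood, Benjamini-Hochberg over 16575 genes, no covariate). Counting error enters through the negative binomial model (common dispersion 0.0126). An exact permutation test of 3 against 3 cannot go below p = 0.1, so none is given. The members, gene lists and motifs were chosen with earlier results of these data known. The genes named were all members, *Yap1*, pathway genes at an adjusted p of at most 0.05 or most abundant in their role, the 5 genes most like *S1pr3* (prior count 2), and of each marker list the most abundant gene and those at 0. Marker genes named for passing the test, the other fibroblast and microglia markers, the sum without *Rlbp1*, *Cryaa*, *Mog*, *Sptlc3* and *Acer1* were added after their values were seen. Of 16 marker lists, 1 is not reported here. Alternatives used DESeq2 1.42.0, limma 3.58.1, other filters and size factors, a length correction (loess span 0.3) and each retina left out. The steps were tested on simulated data.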

Additional observations from a re-analysis of the deposited data

How the results depend on the processing

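The log2 fold change of *S1pr3* lay between -2.23 and -2.01 in 14 alternative fits (other size factors, tests and filters, a length correction and each retina left out). This is a description, since the members were chosen on this contrast, and nothing is read from their calls. At the adjusted p alone, 2 members in place of 1 passed without a filter on low counts (*S1pr2* and *S1pr3*). The 4 members whose retinas did not overlap were also 4 on TMM-scaled CPM, a setting added after the data were seen. The log2 fold change of *S1pr1* turned to -0.02 without *Yap* cKO YR711.

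Over all genes the count of 132 was 263 with the DESeq2 Wald test, 291 with edgeR's likelihood ratio test and 369 without a filter, and between 38 and 516 with single retinas left out. The main split of 35 higher and 97 lower became 352 higher and 164 lower without control YR613. For the pathway genes, the number higher by all criteria was 2 with no fold change minimum and between 0 and 2 with single retinas left out. At the adjusted p alone it was between 0 and 4 higher and between 0 and 1 lower. No paired analysis was possible because the animal codes are not shared between the groups. With 3 retinas a group, the choice of retina limits the pathway calls, and at 5 to 15 counts a retina *S1pr4* has no estimate.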
